A study of Mus musculus with 2 samples.

Results

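Mir208a, Mir208b and Mir499 are microRNA genes that lie in introns of the myosin heavy chain genes Myh6, Myh7 and Myh7b. They were chosen by gene name in the GENCODE M21 annotation, 3 of the 2202 microRNA genes in each table. Their levels were read from 2 microRNA-seq libraries of gastrocnemius, the large calf muscle, from male B6CASTF1/J mice aged 18 to 20 months. B6CASTF1/J mice are the first generation from crossing C57BL/6J with CAST/EiJ. The libraries are biological replicates 2 and 1 of a single group, with inserts under 30 nt and no treatment named. They come from separate biosamples under the same donor record, so nothing states that they came from separate animals. All p-values below set replicate 2 against replicate 1. They measure only how these libraries differ, which may be technical, and say nothing of a condition.

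A microRNA is cut from a hairpin in a longer transcript and loaded into an Argonaute protein, where bases 2 to 8 of the mature strand, the seed, pair with target mRNAs and lower their output. An intronic microRNA on its host's strand is usually transcribed with the host. Myh6 encodes the alpha cardiac myosin heavy chain and Myh7 the beta chain, which is also the myosin of slow skeletal fibres. Myh7b encodes a related slow-type myosin. In mice miR-208a is known from the heart, while miR-208b and miR-499 are known from slow fibres, where they repress the transcription factor Sox6, a repressor of slow-fibre genes. Host mRNA was not measured in these libraries.

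The mature strands below were picked by name in each hairpin because they place the 3 genes in a seed family. Sequences are RefSeq's on the GRCm38.p6 build, the assembly that mm10 also names, and capitals mark the seed.
miR-208a-3p: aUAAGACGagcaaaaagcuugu
miR-208b-3p: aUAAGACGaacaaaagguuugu
miR-499-5p: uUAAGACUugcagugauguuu

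The strands miR-208a-3p and miR-208b-3p carry the same seed, UAAGACG, which no other of 1679 mature microRNA names in the table carries. The seed of miR-499-5p, UAAGACU, was found in no other name. Bases 2 to 7, UAAGAC, were common to the 3 strands and absent from the rest of the table, and they pair with GUCUUA in a target. Along their 22 bases miR-208a-3p and miR-208b-3p were equal at 19 positions. Counted from the 5′ end, with miR-208a-3p first, the differences were G10A, A16G and C18U, all outside the seed. Over the 21 bases of miR-499-5p, miR-208a-3p was equal at 12 positions and miR-208b-3p at 10. The difference next to the shared bases, again with miR-208a-3p first, was G8U.

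The hairpins are shown because the deposited counts were summed over a whole microRNA gene and do not tell its 2 arms apart. Capitals mark the arms, the 5p arm first.
Mir208a: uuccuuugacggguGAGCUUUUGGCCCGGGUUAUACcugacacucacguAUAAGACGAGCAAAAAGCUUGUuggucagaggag
Mir208b: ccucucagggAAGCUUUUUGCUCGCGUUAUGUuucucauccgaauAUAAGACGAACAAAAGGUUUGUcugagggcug
Mir499: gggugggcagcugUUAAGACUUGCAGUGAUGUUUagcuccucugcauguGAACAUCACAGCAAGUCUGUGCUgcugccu

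The mature strand picked above by name lies in the 3p arm of Mir208a and Mir208b and in the 5p arm of Mir499. In aligned hairpins, Mir208a and Mir208b were equal in 66.7% of 87 columns, Mir208b and Mir499 in 60.0% of 85, and Mir208a and Mir499 in 48.5% of 99. RNAfold gave the hairpins minimum free energies of −37.6 kcal/mol for Mir208a, −32.2 for Mir208b and −42.5 for Mir499, with 18 bases of each strand shown above paired. With either strand of the other gene searched, the longest run that Mir208a and Mir208b shared was 14 bases. This held with each other or with any other microRNA gene of the tables. For Mir499 it was 13 bases. None of the mature sequences occurred exactly in another gene among 141767 annotated transcripts. Introns outside the annotated transcripts were not searched.

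Each gene sits in 1 intron of its host, on the host's strand. Mir208a (ENSMUSG00000065432.1) lies at chr14:54949060-54949142 of mm10, minus strand, in intron 29 of the main Myh6 transcript, which has 39 exons. Mir208b (ENSMUSG00000077928.1) lies at chr14:54975700-54975776, minus strand, in intron 31 of the main Myh7 transcript, of 41 exons. Mir499 (ENSMUSG00000076312.1) lies at chr2:155622880-155622958, plus strand, in intron 19 of the main Myh7b transcript, of 42 exons. The introns are of like size, 542 bases in Myh6, 461 in Myh7 and 481 in Myh7b, and the hairpins lie 195, 102 and 158 bases after the exon before them. The main transcript is the first numbered one of the host in the annotation and has a CCDS (consensus coding sequence) record. No annotated host transcript placed a hairpin in an exon.

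**Figure D1:**
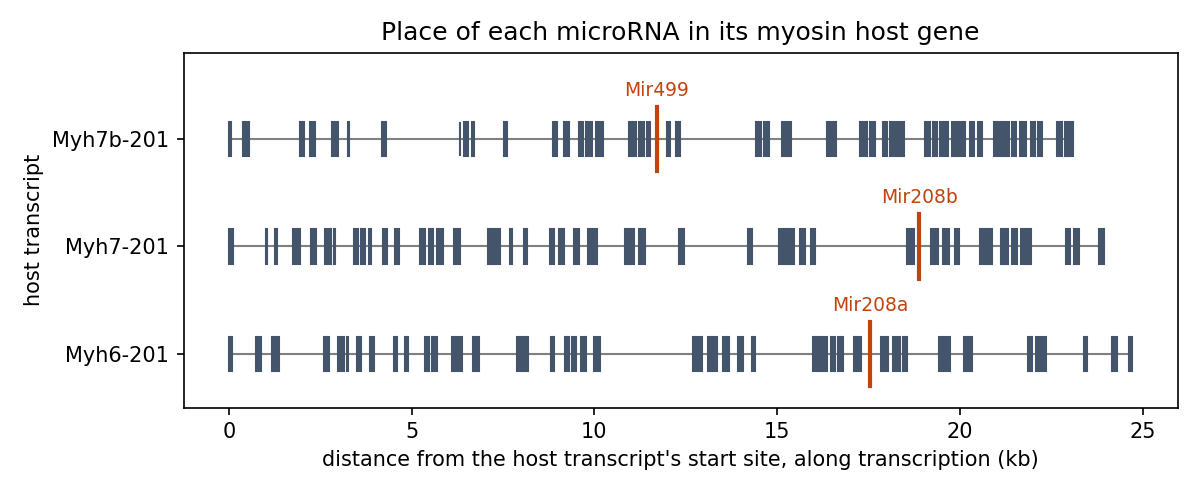
Exons (blocks) and microRNA hairpins (red lines) of the main transcripts of Myh7b, Myh7 and Myh6, drawn to scale by distance in kb from the host's start site along transcription. Mir208b and Mir208a lie 18850 and 17499 bases into hosts of 23943 and 24721 bases, whereas Mir499 lies 11668 bases into a host of 23096 bases.

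Mir208a and Mir208b are 26557 bases apart, and their hosts are separated by 4042 bases. Apart from each other, Mir208a and Mir208b had 2 other microRNA genes of the tables within 1000000 bases, Mir686 and Mir6948. Mir499 had 3 such neighbours, Mir695, Gm22759 and Gm22758. None of these 5 neighbours had a count in either library.

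The tables assigned 2156222 reads of replicate 2 and 4442692 of replicate 1 to microRNA genes, 19.8% and 15.7% of all their reads. Multimapping reads, 70.2% and 73.8%, were left unassigned by the authors. Levels are counts per 1000000 assigned counts (CPM), and a count of 0 would allow up to 1.39 CPM in replicate 2 and 0.675 CPM in replicate 1. Reads came from PCR without molecular identifiers, so intervals and limits cover counting error only. Fewer fibres of a type and less microRNA per fibre cannot be told apart in bulk tissue.

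Mir499 was the most abundant of the 3, with 1118 counts in replicate 2 and 315 in replicate 1. That is 518 CPM (exact Poisson 95% interval 489 to 550) in replicate 2 and 70.9 CPM (63.3 to 79.2) in replicate 1. It ranked 70th in replicate 2 and 145th in replicate 1 among all genes.

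Mir208b, the microRNA gene of the slow myosin, had 232 counts in replicate 2 and 151 in replicate 1. Its level was 108 CPM (94.2 to 122) in replicate 2 and 34.0 CPM (28.8 to 39.9) in replicate 1, at ranks 124 and 182. The intervals of the libraries did not overlap for either gene. Differences past counting error were common, as the library test given below called 30.3% of 380 genes higher in replicate 2 and 31.6% lower.

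Mir208a, the microRNA gene of the alpha cardiac myosin, was the lowest, with 51 counts in replicate 2 and 9 in replicate 1. Its 23.7 CPM (17.6 to 31.1) in replicate 2 and 2.03 CPM (0.926 to 3.85) in replicate 1 put it at rank 200 of the 524 genes with a count in replicate 2 and 353 of 603 in replicate 1. The gene hosted by the alpha cardiac myosin thus had reads in both libraries of calf muscle, at a low level.

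**Figure D2:**
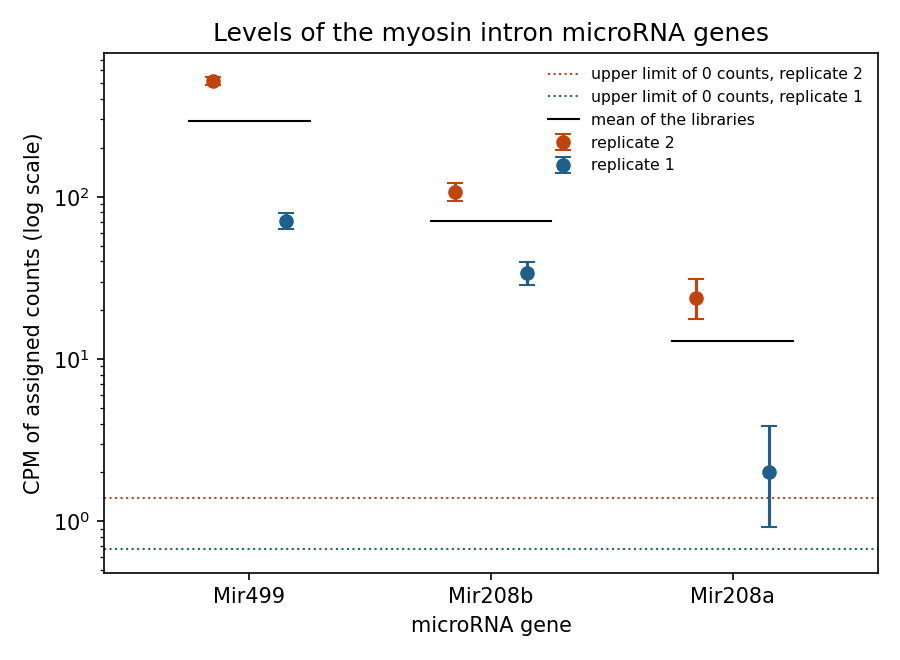
Level of each gene in CPM (log axis) in replicate 2 (red) and replicate 1 (blue), with exact Poisson 95% intervals, the mean as a black bar and the limits of 0 counts as dotted lines. All 3 genes are higher in replicate 2, from 518 against 70.9 CPM for Mir499 to 23.7 against 2.03 CPM for Mir208a.

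The order Mir499, Mir208b, Mir208a held in each library, with no overlap of the Poisson intervals between neighbours in the order. It was the same per base of precursor, where Mir499 had 656 CPM per 100 bases in replicate 2 and 89.8 in replicate 1. Mature microRNAs are close to equal in length, so the CPM were not divided further. Whether a read stands for the same number of molecules in each microRNA was not tested, so the order is one of reads. Over the libraries the means were 295 ± 316 CPM for Mir499, 70.8 ± 52.0 CPM for Mir208b and 12.8 ± 15.3 CPM for Mir208a (SD, n = 2 each). Across libraries the range of Mir499 overlapped that of Mir208b, whose range did not overlap that of Mir208a. With 2 libraries an exact two-sided sign-flip test of such an order cannot give a p under 0.5.

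Within the family the mix differed between the libraries. Mir499 made up 79.8% of the 1401 family counts in replicate 2 (Wilson 95% interval 77.6 to 81.8) and 66.3% of the 475 in replicate 1 (61.9 to 70.4). Mir208b made up 16.6% (14.7 to 18.6) in replicate 2 and 31.8% (27.8 to 36.1) in replicate 1. Mir208a made up 3.64% (2.78 to 4.75) in replicate 2 and 1.89% (1.00 to 3.56) in replicate 1, intervals that overlap. By seed, the UAAGACU strand's gene stood at 518 CPM in replicate 2 and 70.9 CPM in replicate 1, and the genes with UAAGACG together at 131 and 36.0 CPM in replicates 2 and 1. All genes with UAAGAC summed to 650 CPM in replicate 2 and 107 CPM in replicate 1.

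Each of the 3 genes was higher in replicate 2. Mir208a was 12.5-fold higher (exact Clopper-Pearson 95% interval 6.07 to 28.8), Mir499 7.80-fold (6.88 to 8.87) and Mir208b 3.38-fold (2.74 to 4.17), after TMM scaling of the library totals. In an exact binomial test, two-sided and Benjamini-Hochberg adjusted over 380 genes, the adjusted p-values were 3.72e-17 for Mir208a, 4.67e-289 for Mir499 and 2.46e-31 for Mir208b. The test takes in counting error alone. By the same test 30.3% of the genes tested were called higher in replicate 2 and 31.6% lower, so a call by itself is common here. With all reads of the tables as library totals, the calls split into 144 higher and 88 lower in replicate 2, against 115 and 120 with TMM scaling. Calls with a difference of 2-fold or more upward were made for 12.1% of genes and included the 3 genes.

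Set against the spread of all genes, Mir208a and Mir499 were among the furthest above in replicate 2 and Mir208b less so. Log2 ratios of CPM + 1, which shrink the change of low genes, were 3.10 for Mir208a, 2.95 for Mir499 and 1.73 for Mir208b. Over the 228 genes with 100 or more counts these ratios had a median of −0.021 and an SD of 1.13. Of the 380 genes tested, 3 had a higher ratio than Mir208a, 4 a higher one than Mir499 and 19 a higher one than Mir208b. Among genes within 2-fold of the same mean CPM, 0 of 80 exceeded Mir208a, 1 of 53 exceeded Mir499 and 4 of 63 exceeded Mir208b. The biological coefficient of variation of all genes by edgeR was 0.529, a spread that the binomial p-values leave out.

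**Figure D3:**
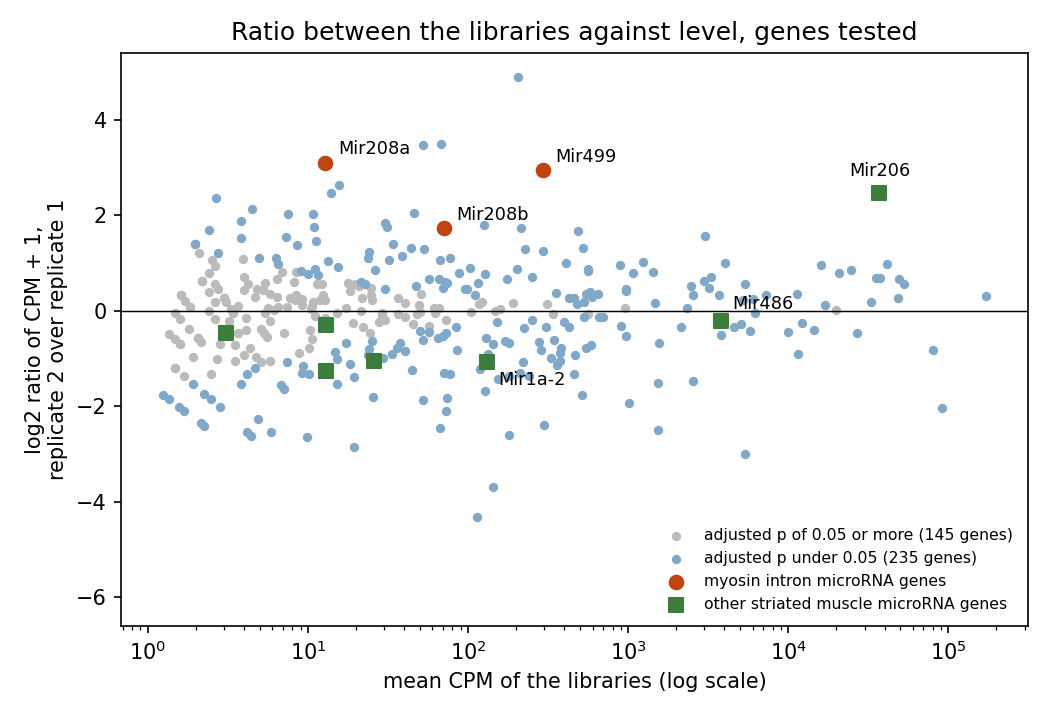
Log2 ratio of CPM + 1, replicate 2 over replicate 1, against mean CPM (log axis) for the 380 genes tested, with the myosin intron genes in red and other striated muscle microRNA genes as green squares. Among genes within 2-fold of the same mean CPM, 0 lie above Mir208a at 3.10, 1 above Mir499 at 2.95 and 4 above Mir208b at 1.73. Mir206 lies at 2.47.

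The ratios between members also differed between the libraries. Mir208b stood apart from Mir208a, its neighbour on the chromosome with the same seed, and from Mir499. The ratio of Mir208a to Mir208b was 0.220 in replicate 2 and 0.0596 in replicate 1, a 3.68-fold difference (95% interval 1.73 to 8.76, adjusted p = 0.000226). The ratio of Mir499 to Mir208b was 4.82 in replicate 2 and 2.09 in replicate 1, a 2.31-fold difference (1.80 to 2.96, adjusted p = 5.79e-11). The ratio of Mir499 to Mir208a was 21.9 in replicate 2 and 35.0 in replicate 1, or 0.627-fold (0.268 to 1.30, adjusted p = 0.262), so a difference in either direction remains within the interval. These are Fisher's exact tests, two-sided and adjusted over the 3 pairs, which need no scaling of the libraries.

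Genes of like level and like ratio were taken by a fixed rule. In mean CPM, Mir499 stood between Mir451a at 299 ± 296 CPM, an erythroid gene that was lower in replicate 2, and Mir16-2 at 294 ± 158 CPM (SD, n = 2 each). Mir208b stood between Mir148b at 71.2 ± 45.7 CPM and Mir92-2 at 70.1 ± 21.1 CPM. Mir208a stood between Mir133a-1 at 13.0 ± 2.63 CPM and Mir1963 at 12.8 ± 0.915 CPM. Of these neighbours in level only Mir133a-1 was searched for bases shared with other microRNA loci. It shares 31, so its own level is uncertain, and the levels of the others may be too. With the myosin intron genes themselves left out, the 3 genes nearest in log2 ratio among those with 100 or more counts were the same for Mir499 and Mir208a. They were Mir206 at 2.47, Mir770 at 3.47 and Mir26a-1 at 3.50, whose mature strand is also made from Mir26a-2, so that its own level is uncertain. For Mir208b they were Mir107 at 1.74, Mir598 at 1.75 and Mir221 at 1.67. The likeness rests on 2 libraries that share their labels.

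The other striated muscle microRNA genes did not all follow this direction. Of 10 listed genes besides these 3, 9 were found in the tables by name and 7 were tested. Mir486b was not found under that name, so its direction is not covered here. Of these 7, 1 was called higher in replicate 2, 4 were called lower and 2 did not pass. Over all 380 genes tested, 30.3% were called higher and 31.6% lower. The median log2 ratio was −0.47 for the 7 genes against 0.02 over all genes tested. The gene that was higher, Mir206, a microRNA of skeletal muscle and regenerating fibres, stood at 61540 CPM in replicate 2, against 11810 CPM in replicate 1. For Mir486, hosted by the ankyrin gene Ank1, the levels were 3417 CPM in replicate 2 and 4241 CPM in replicate 1, 0.859-fold (0.836 to 0.883).

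Mir1a-2, a locus of the abundant muscle microRNA miR-1, stood at 81.2 CPM in replicate 2, against 183 CPM in replicate 1, 0.472-fold (0.399 to 0.556). Mir1a-1, its other locus, held 6.96 and 19.1 CPM in replicates 2 and 1, and Mir133b, the partner of Mir206, 15.8 and 35.8 CPM. The loci Mir133a-1 and Mir133a-2 did not pass, at 0.799-fold (0.479 to 1.29) and 0.646-fold (0.186 to 1.83). Mir1b had 1 count and Mir133c none. The 6 genes Mir1a-1, Mir1a-2, Mir1b, Mir133a-1, Mir133a-2 and Mir133b share 20 or more bases with another microRNA locus, with either strand searched. Reads that fit several places were left unassigned. For Mir206 and Mir486 the longest run found in a microRNA locus elsewhere was 13 bases, with either strand searched. That search took in other loci only, so a copy in a microRNA gene overlapping Mir206 or Mir486 is not covered. Whether lost multimapping reads bear on the direction of the Mir1a and Mir133 loci or of Mir486 was not tested.

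**Figure D4:**
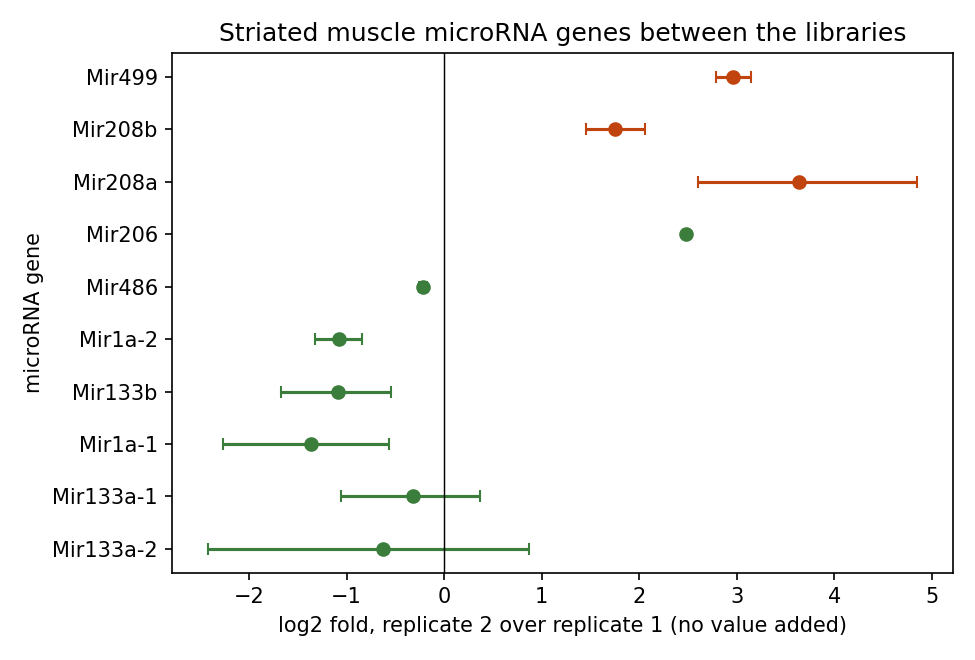
Log2 fold of replicate 2 over replicate 1 with exact 95% counting intervals for the myosin intron genes (red) and the tested genes of the striated muscle list (green), TMM scaled with no value added. Mir499, Mir208b, Mir208a and Mir206 lie to the right of 0, whereas Mir486, Mir1a-2, Mir133b and Mir1a-1 lie to the left and the intervals of the Mir133a loci cross 0.

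The 3 genes made up 0.989% of all striated muscle list counts, their own included, in replicate 2 (Wilson 95% interval 0.938 to 1.04) and 0.651% in replicate 1 (0.595 to 0.712). Mir206 made up 93.6% in replicate 2 and 71.9% in replicate 1. Only assigned counts of the listed genes found by name enter these shares. Reads of the Mir1a and Mir133 loci that fit several places are missing from the list totals, so the shares are not those of all muscle microRNA. Relative to Mir206, Mir499 was 1.40-fold higher in replicate 2 (1.24 to 1.60, adjusted p = 1.72e-07) and Mir208a 2.24-fold higher (1.09 to 5.18, adjusted p = 0.0214). Mir208b was 0.608-fold relative to Mir206 (0.493 to 0.751, adjusted p = 4.49e-06). These were Fisher's exact tests, two-sided, adjusted over 3. On counting error the 3 genes thus differed from Mir206 in either direction, by less than each differed between the libraries.

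Markers of other cell types also differed between the libraries. Over all 380 genes tested, 30.3% were called higher in replicate 2 and 31.6% lower, and each list is short. The liver gene Mir122 summed to 396 CPM in replicate 2 and 13.3 CPM in replicate 1. The neural list summed to 68.2 and 21.2 CPM in replicates 2 and 1. Mir137, its highest gene, held 47.3 and 13.3 CPM of these. In the neural list of 9 genes 3 were tested, of which 2 were called higher and 1 lower in replicate 2. No count was found for 5, among them Mir9-1, Mir9-2 and the Mir124a loci. Both mural genes were higher in replicate 2, at 56840 CPM summed in replicate 2 and 48844 CPM in replicate 1, led by Mir143. Of 5 leukocyte genes, led by Mir150, 4 were tested, of which 2 were called higher and 2 lower in replicate 2. They summed to 3632 and 2285 CPM in replicates 2 and 1, and Mir142b was at 0. In the other direction, both erythroid genes, led by Mir451a, were lower in replicate 2, at 109 CPM summed in replicate 2 and 777 CPM in replicate 1. The endothelial gene Mir126a was lower at 55386 CPM in replicate 2 and 104418 CPM in replicate 1. Of the 4 fibroblast and stroma genes, led by Mir214, 3 were tested and 2 called lower in replicate 2. The list summed to 416 CPM in replicate 2 and 1654 CPM in replicate 1, and Mir199a-1 was at 0. Of the 6 epithelial genes, led by Mir205, 4 were tested and 3 called lower in replicate 2. The list summed to 14.8 CPM in replicate 2 and 63.9 CPM in replicate 1. Their part in the difference of the myosin intron genes was not tested.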

How the data were processed

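Each table, 1 per library, was deposited by the authors as raw counts per microRNA gene on mm10 with GENCODE M21, per the file headers of the readmes. For aligner, trimming and counter, the sources used here name nothing. The stranded sense counts were taken. Reads not assigned to a microRNA gene stayed out of totals and tests. In replicates 2 and 1 these were 70.2% and 73.8% multimapping, 6.76% and 7.93% unmapped and 3.24% and 2.66% in no microRNA gene.

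The members and gene lists were chosen with earlier results of these data known. CPM used assigned counts. Library ratios used TMM (edgeR 4.0.16) and CPM + 1. Genes with 10 or more counts entered an exact two-sided binomial test, Benjamini-Hochberg adjusted, at 0.05. The test was checked on counts simulated with counting error only and known scaling, so its behaviour under wider spread was not checked. Named genes were the members, the muscle list, for each member the genes directly above and below in mean CPM and the 3 nearest in log2 ratio (members left out), and the highest gene of each cell type list. All gene identifiers and member sequences matched the references. Python 3.11.15, scipy 1.17.1, R 4.3.3, DESeq2 1.42.0 (size factors only) and RNAfold were used.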

Additional observations from a re-analysis of the deposited data

How the results depend on the processing

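Under the alternatives run (counts without strand, DESeq2 size factors, plain totals, added values of 0.1 or 5 CPM, replicate 1 thinned to the depth of replicate 2, and all reads in the tables as totals, the last chosen after seeing the data), the 3 myosin intron genes stayed higher in replicate 2 and past the threshold. Log2 ratios ranged between 2.08 and 3.57 for Mir208a, 2.81 and 3.10 for Mir499 and 1.56 and 1.82 for Mir208b. The lowest and highest for Mir208a came with 5 and 0.1 CPM added. Thinning left Mir208a with 3 counts in replicate 1, and a filter of 100 counts left it untested. Against TMM, DESeq2 size factors shifted all log2 ratios by −0.14 and all reads as totals by 0.25 before any value is added. With 1 CPM added, the ratios with all reads as totals were 2.11 for Mir208a, 1.82 for Mir208b and 3.10 for Mir499. With TMM they were 3.10, 1.73 and 2.95 in the same order. Only that of Mir208a fell, as the added 1 CPM weighs more at lower CPM. Requiring 2-fold or more gave 109 genes in place of 235, 46 higher and 63 lower in replicate 2. With all reads as totals every mean level was lower, at 2.50 CPM for Mir208a, 13.3 CPM for Mir208b and 57.0 CPM for Mir499, and 72.8 CPM for the 3 summed, against 12.8, 70.8, 295 and 378 CPM over assigned counts. The 3 genes summed to 107 CPM without replicate 2 and 650 CPM without replicate 1. The ratios between members and to Mir206 kept their direction and side of the threshold with replicate 1 thinned. Counts without strand gave the same values, and no other alternative was run for them. No paired analysis was possible because the labels give a single group. Depth limits Mir208a most.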
